A study of Mus musculus with 4 samples.

Results

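Amino acid and peptide transporters of the solute carrier (SLC) families were examined in basal cells of the mouse mammary gland. Members were all genes whose array annotation names them Slc1, Slc3, Slc6, Slc7, Slc15, Slc36, Slc38 or Slc43 with a plain member number, together with Slc16a10, the aromatic amino acid carrier of the Slc16 family, where a probe set belongs to exactly 1 gene. This gave 64 of the 18193 genes of the array, read by 130 of 34945 probe sets with 1 gene. RNA came from freshly sorted basal cells, a fraction enriched for mammary stem cells that also holds myoepithelial cells and their progenitors. All 4 arrays came from mice of the mixed background B66SJL/HEV/J that carried MMTV-Wnt1, a transgene in which a mammary tumour virus promoter drives the Wnt1 ligand, so the control diet group is transgenic too. The groups differed in the protein of the diet, casein (CAS, 2 arrays) or soy protein isolate (SPI, 2 arrays). Ages, feeding times and the number of animals behind an array are not given in the sources used here, so the p-values reflect how far these samples vary among themselves, and that variation may be technical.

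Cells take up amino acids through carriers that differ in substrate and in what drives them. Some use the sodium gradient and some protons, others exchange 1 amino acid for another, and a few let amino acids pass down their gradient. Several exchangers work only as a heteromer, in which a heavy chain of the Slc3 family brings a light chain of the Slc7 family to the membrane. In the lactating mammary gland such carriers supply the amino acids of milk protein, and in many cells the supply is reported to the growth regulator mTORC1 and to the transcription factor ATF4.

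The deposited values are log2 expression values centred on the median of the 4 arrays for each probe set. They hold differences between arrays and no levels. A coarse level class could be read from the step size of the numbers. Of the 64 genes, 16 lay in the class 8 to 16 on the log2 scale, 30 in the class 4 to 8, 16 in the class 2 to 4 and 2 below 2. For comparison, 70 of 90 ribosomal protein probe sets and 1 of 44 olfactory receptor probe sets were in the class 8 to 16. The class can be too high by chance, since 16.7% of top-class probe sets had a step coarser than their class needs.

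Of 20 basal and myoepithelial markers 19 were in the class 8 to 16 and the other in the class 4 to 8. The class 8 to 16 also held 9 of 10 milk protein, 12 of 20 luminal and 13 of 24 fibroblast markers, so a high class does not set basal cells apart. Trp63, the basal transcription factor, was 1.45-fold higher in SPI (limma adjusted p = 0.0314), while the basal keratins Krt14 and Krt5 and the smooth muscle actin Acta2 differed by 0.15, -0.042 and 0.040 and did not pass. Markers of other cells moved with diet, on arrays where 2.90% of all genes were called lower in SPI and 0.786% higher. Of 24 fibroblast markers 18 were lower in SPI and 0 higher, and the mean of their centred log2 values was 0.53 and 0.58 under CAS against -0.55 and -0.58 under SPI. Of 20 luminal epithelial markers 9 were lower and 0 higher, with means of 0.27 and 0.23 in CAS and -0.23 and -0.38 in SPI. Of 20 basal markers 4 were higher and 0 lower, with means of -0.12 and -0.089 in CAS and 0.072 and 0.11 in SPI. Endothelial and pericyte (6 of 16), milk protein (5 of 10), mast cell (4 of 7) and adipocyte markers (4 of 9) were lower too, 1 of 16 macrophage markers was higher and 1 of 11 lymphocyte markers was lower. The part of these shifts in the transporter differences was not tested, and in sorted bulk RNA fewer cells of a type cannot be told apart from less RNA per cell.

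Between the diets 3 of the 64 transporters changed. Slc15a2, the high-affinity peptide transporter PEPT2, and Slc7a5, the light chain of the large neutral amino acid exchanger LAT1, were higher in SPI, and Slc6a14, a broad carrier of neutral and cationic amino acids, was lower. The test was limma with p-values adjusted by Benjamini-Hochberg across 18193 genes, called at 0.05, and it called 3.68% of all genes, 0.786% higher and 2.90% lower in SPI. The share of transporters called, 4.69%, was near that background. The median difference of the 64 was 0.023 on the log2 scale (middle range -0.072 to 0.16, from the first to the third quartile), beside 0.021 for all genes. At an unadjusted p under 0.05 there were 19 members, 12 higher and 7 lower, or 29.7%, where 21.0% of all genes reached it. Both SPI arrays lay above both CAS arrays for 22 members (34.4%, beside 29.4% of all genes) and below for 9 (14.1%, beside 22.4%).

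The number of calls moved with the scaling. With arrays centred on the hybridization controls, transcripts added before hybridization, the median of all genes moved from 0.021 to 0.18 and 13 members passed, 12 higher and 1 lower, where 12.0% of all genes passed and 9.14% passed as higher. That scaling adds the same amount to the difference of every gene, and 24 members, all with small negative differences, changed sign with it. Among genes at level 4 or above 5 of 46 members passed, beside 7.98% of the 13692 such genes, and Slc7a2 (higher), Slc1a5 and Slc43a2 (lower) were added there. When any 1 array was left out, 1 diet had a single array, which is then assumed to vary like the other diet. The median difference of the members lay between 0.012 and 0.049 in those fits.

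**Figure D1:**
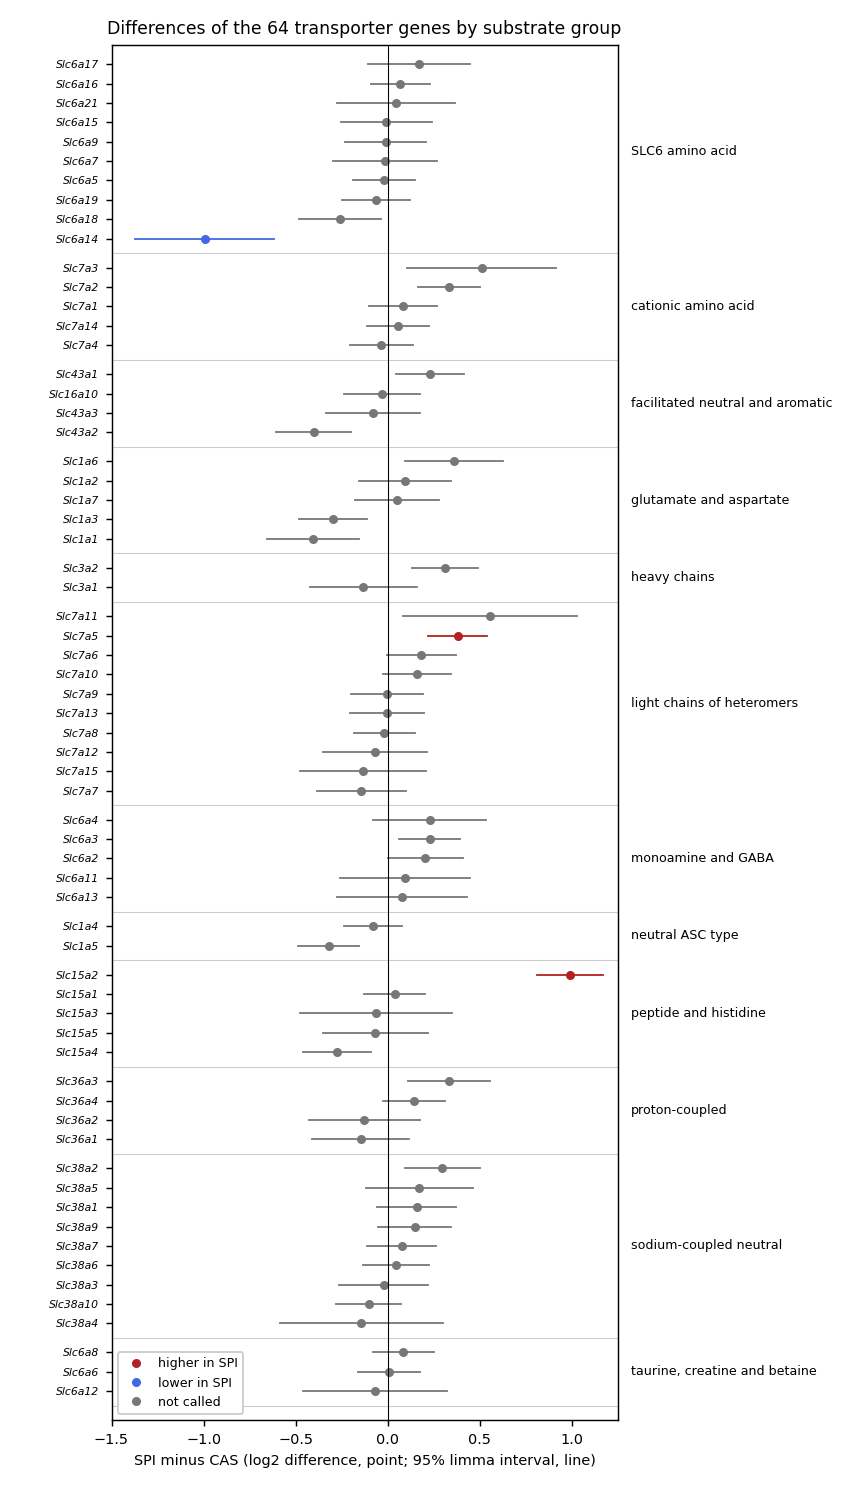
SPI minus CAS for each of the 64 transporters (log2 difference on the x axis, 95% limma interval as a line), grouped by substrate, n = 2 arrays per diet. Slc15a2 at 0.99 and Slc7a5 at 0.38 are coloured as higher, Slc6a14 at -0.99 as lower, and the intervals of most other genes cross 0.

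Promoter windows of 250 bases before the start site, from RefSeq (GRCm38.p6), were used for 46 of the 64 genes, 67 windows in all. Not every chromosome was searched, for the members or for the genome. Both strands were searched for the ATF4 site TGATGNAA, the NRF2 site TGACNNNGC and the MYC-type E-box CACGTG, motifs chosen after the values were seen. The NRF2 letters share their TGAC with AP-1-type sites. The ATF4 letters were in 4 of 67 transporter windows (5.97%), of Slc6a21, Slc7a11 and Slc7a7, and in 3.45% of 32851 windows of the genome, the NRF2 letters in 9 (13.4%) and 10.2%, and the E-box in 9 (13.4%) and 6.02%. A match is a description of letters, not of binding. The windows of Slc15a2 (chr16:36784963-36785212, minus strand) and Slc6a14 (chrX:21714650-21714899, plus strand) are shown because these genes differed most. That of Slc7a11, which encodes the cystine-glutamate exchanger (chr3:50443614-50443863, minus strand) is shown because it holds the ATF4 letters in both orientations, at positions -66 and -47 from the start. Motif matches are in capitals, and neither of the first pair of windows holds one.
Slc15a2: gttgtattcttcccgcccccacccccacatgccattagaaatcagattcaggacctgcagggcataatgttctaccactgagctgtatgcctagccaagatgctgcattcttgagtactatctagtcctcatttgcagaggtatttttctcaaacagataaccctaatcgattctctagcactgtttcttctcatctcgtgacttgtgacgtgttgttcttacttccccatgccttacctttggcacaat
Slc6a14: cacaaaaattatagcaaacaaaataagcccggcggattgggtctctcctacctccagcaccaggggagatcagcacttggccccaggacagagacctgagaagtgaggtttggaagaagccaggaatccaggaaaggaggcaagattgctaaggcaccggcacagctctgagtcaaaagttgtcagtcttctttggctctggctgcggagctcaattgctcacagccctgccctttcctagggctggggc
Slc7a11: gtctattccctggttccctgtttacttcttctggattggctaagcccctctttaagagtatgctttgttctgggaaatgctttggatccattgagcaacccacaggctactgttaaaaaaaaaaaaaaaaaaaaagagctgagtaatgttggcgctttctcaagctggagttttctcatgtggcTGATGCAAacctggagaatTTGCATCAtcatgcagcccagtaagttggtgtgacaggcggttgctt

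Slc15a2 moved most upward. It carries dipeptides and tripeptides into cells together with protons. Its centred log2 values were -0.47 and -0.48 under CAS and 0.47 and 0.57 under SPI. The arrays of a diet lay close together and the diets far apart. The difference was 0.99 on the log2 scale, or 1.98-fold higher in SPI (limma adjusted p = 0.00703, 95% interval 1.75 to 2.25, with 2 arrays in each group). The gene was read by 3 probe sets, at 0.99 (class 8 to 16, the one behind the gene value), 1.05 and 1.08, and each passed on its own (limma adjusted p between 0.0115 and 0.0209, over 34945 probe sets, of which 2.22% passed). Of the members, Slc15a2 was the only one that still passed with the replicate number as a block (limma adjusted p = 0.0231). Without 1 array, a fit in which 1 diet has a single array, its difference lay between 0.94 and 1.04 (limma adjusted p between 0.0629 and 0.189).

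The other peptide and histidine carriers did not pass. Slc15a4, which moves histidine and peptides out of endosomes and lysosomes, was at 0.097 and 0.16 in CAS and -0.097 and -0.20 in SPI, with no overlap between the diets (difference -0.28, 95% interval -0.46 to -0.091, limma adjusted p = 0.121). Its other probe set, in a lower level class, was on the other side of 0 at 0.070. Slc15a1, the intestinal transporter PEPT1, and Slc15a5 were in the class below 2 and differed by 0.038 and -0.067. The lysosomal Slc15a3 differed by -0.063, and its SPI arrays, at -0.30 and 0.17, lay further apart than the diets.

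Slc6a14 moved most downward. It uses sodium and chloride gradients to concentrate neutral and cationic amino acids. Its centred log2 values were 0.68 and 0.26 under CAS and -0.55 and -0.50 under SPI. The diets did not overlap. It was 1.99-fold lower in SPI (95% interval 1.53 to 2.59, limma adjusted p = 0.0371), and the difference was -0.78 without CAS replicate 1 and -1.21 without CAS replicate 2. The value is the mean of a pair of probe sets at -1.42 and -0.56, neither of which passed on its own (limma adjusted p = 0.0873 and 0.218). The first was at 1.15 and 0.41 under CAS and -0.41 and -0.89 under SPI, and the second at 0.22 and 0.11 under CAS and -0.69 and -0.11 under SPI. Arrays of a diet thus lay apart by different amounts on each probe set, and their mean hides that spread in SPI. Both lay in the class 2 to 4, where 31 of 44 olfactory receptor probe sets lay as well, and with the replicate number as a block the gene missed the threshold (limma adjusted p = 0.0626). Of 20 luminal markers 9 and of 24 fibroblast markers 18 were called lower on these arrays, as were some in other lists. Of 20 basal markers 4 and of 16 macrophage markers 1 were called higher. None of this was tested as a part of the Slc6a14 difference.

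Light chains and heavy chains of the heteromeric exchangers were next. Slc7a5 was at -0.18 and -0.19 in CAS and 0.18 and 0.22 in SPI. The arrays of a diet were close, and the difference of 0.38 made it 1.30-fold higher in SPI (95% interval 1.16 to 1.46, limma adjusted p = 0.0482). This call lies at the threshold, and its single probe set missed it when probe sets were tested on their own (limma adjusted p = 0.0774) and when arrays were centred on their median (adjusted p = 0.0525) or blocked by replicate number (adjusted p = 0.134). Slc3a2, also known as CD98, is the heavy chain that Slc7a5 pairs with. It was at -0.13 and -0.23 in CAS and 0.14 and 0.13 in SPI, which does not overlap, but the difference of 0.31 did not pass (95% interval 0.13 to 0.49, limma adjusted p = 0.0896).

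Slc7a11, the light chain of the cystine-glutamate exchanger, had the largest difference among the light chains and the widest spread. Its values were -0.47 and -0.084 in CAS and 0.084 and 0.48 in SPI. The diets did not overlap, yet arrays of the same diet lay further apart than the nearest arrays of different diets (difference 0.56, 95% interval 0.085 to 1.03, limma adjusted p = 0.183). A probe set in the class 4 to 8 gave 0.074. Slc7a6, a light chain that exchanges cationic for neutral amino acids, differed by 0.18 (limma adjusted p = 0.240), and its relative Slc7a7 by -0.14. Slc7a8, the LAT2 light chain, was in the class 8 to 16 and differed by -0.018 (95% interval -0.18 to 0.15).

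The other light chains, all in the class 2 to 4, did not pass. Slc7a10, which carries small neutral amino acids in brain, was at 0.16, Slc7a9, the partner of Slc3a1 in kidney, at -0.0019, and Slc7a12, Slc7a13 and Slc7a15 between -0.14 and -0.0039. Slc3a1 itself was in the class 2 to 4 and differed by -0.13. Of the 10 light chains 1 passed, 4 had both SPI arrays above both CAS arrays and 0 had them below. Among all genes 29.4% lay above in this way and 22.4% below, and 3.68% passed.

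Among the cationic amino acid carriers and their relatives 0 of 5 passed in limma. An unadjusted p under 0.05 was reached by 2 of the 5 (beside 21.0% of all genes), and 4 had both SPI arrays above both CAS arrays (beside 29.4%). Slc7a2, an arginine and lysine carrier, was at -0.19 and -0.14 in CAS and 0.14 and 0.20 in SPI. Its arrays of a diet lay close, with a difference of 0.33 (95% interval 0.16 to 0.50, limma adjusted p = 0.0703). Of its 4 probe sets 3 lay between 0.29 and 0.43 and the other at 0.0052. Slc7a3, a related carrier, had the largest difference of the group at 0.51, but its CAS arrays were at -0.097 and -0.49 and its SPI arrays at 0.097 and 0.33 (limma adjusted p = 0.164). Slc7a1, the widely expressed cationic carrier, was in the class 8 to 16 and differed by 0.085 (95% interval -0.099 to 0.27). Slc7a14 and Slc7a4 were at 0.056 and -0.035.

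**Figure D2:**
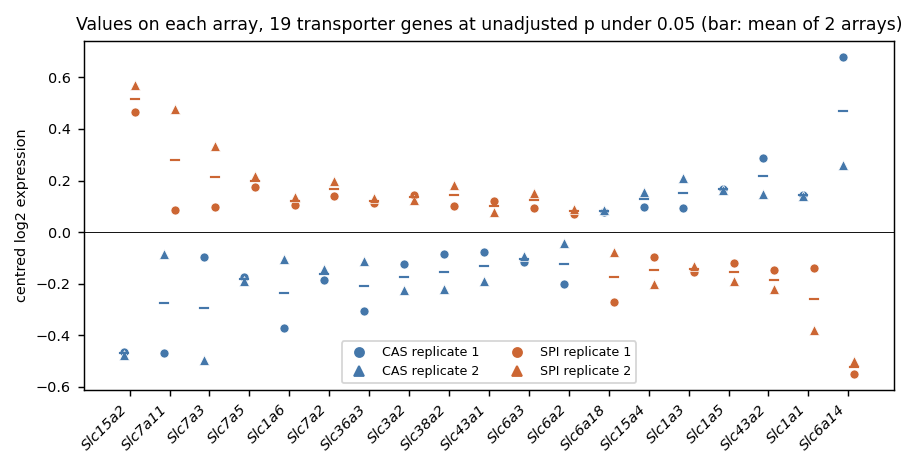
Centred log2 expression on each array (y axis) of the 19 transporters with an unadjusted p under 0.05, in order of their difference, with a bar at the mean of the 2 arrays of a diet. The CAS arrays of Slc15a2 lie together near -0.47, while those of Slc6a14, a mean of 2 probe sets, stand at 0.68 and 0.26.

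In the Slc1 family, which holds the glutamate carriers and the neutral exchangers ASCT1 and ASCT2, 0 of 7 genes passed in limma. An unadjusted p under 0.05 was reached by 4 (57.1%, beside 21.0% of all genes), and 4 had both SPI arrays below both CAS arrays (57.1%, beside 22.4%). Slc1a5, the glutamine exchanger ASCT2, was at 0.17 and 0.17 in CAS and -0.12 and -0.19 in SPI. The diets were apart by -0.32 (95% interval -0.49 to -0.15, limma adjusted p = 0.0751). Its probe sets disagreed in size, at -0.59, which passed on its own (limma adjusted p = 0.0450), and -0.047. Slc1a4, or ASCT1, was at 0.033 and 0.043 in CAS and -0.032 and -0.052 in SPI, a difference of -0.080 (95% interval -0.24 to 0.078) that turned positive with arrays centred on the hybridization controls.

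Slc1a1, the glutamate and cysteine carrier EAAT3, was at 0.15 and 0.14 in CAS and -0.14 and -0.38 in SPI (difference -0.40, limma adjusted p = 0.104). All 3 of its probe sets were below 0, between -0.79 and -0.40, and the one at -0.52 passed on its own (limma adjusted p = 0.0403). The 8 to 16 class probe set gave the gene value, and the mean of all 3 passed (-0.57, limma adjusted p = 0.0254). Slc1a3, the glial glutamate carrier GLAST, was at 0.095 and 0.21 in CAS and -0.16 and -0.13 in SPI (difference -0.30, limma adjusted p = 0.105). That value is the mean of a probe set at -0.65, which passed on its own (limma adjusted p = 0.0342), and one at 0.053, and the other 4 lay between -0.18 and -0.065. Of 24 fibroblast markers 18 were called lower, as were some in other marker lists, while 4 of 20 basal and 1 of 16 macrophage markers were called higher. None of this was tested as a part of the Slc1a1 and Slc1a3 differences. Slc1a6, a cerebellar carrier in the class 2 to 4, was at 0.36 (limma adjusted p = 0.145), and Slc1a2 and Slc1a7 were at 0.095 and 0.051.

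Facilitated carriers let neutral or aromatic amino acids pass down their gradient. None of the 4 genes placed in this group passed in limma, where 3.68% of all genes passed. At an unadjusted p under 0.05 there were 2 of the 4, beside 21.0% of all genes. Slc43a3 was placed here by its family name alone, and no amino acid substrate is claimed for it. Slc43a2, the branched-chain carrier LAT4, was at 0.29 and 0.15 in CAS and -0.15 and -0.22 in SPI. The diets did not overlap, and the difference of -0.40 came close to the threshold (95% interval -0.61 to -0.20, limma adjusted p = 0.0712). All 3 of its probe sets were below 0, between -0.71 and -0.30. Slc43a1, the related LAT3, went the other way, at -0.077 and -0.19 in CAS and 0.12 and 0.077 in SPI (difference 0.23, limma adjusted p = 0.164). Slc43a3 and Slc16a10 differed by -0.080 and -0.030, with overlapping diets. The 4 probe sets of Slc16a10 differed in sign, from -0.11 to 0.24.

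None of the 9 Slc38 genes, the sodium-coupled neutral amino acid carriers, passed in limma. An unadjusted p under 0.05 was reached by 1 (11.1%, beside 21.0% of all genes). That was Slc38a2, or SNAT2, which is induced when cells lack amino acids. It was at -0.086 and -0.22 in CAS and 0.10 and 0.18 in SPI (difference 0.30, 95% interval 0.094 to 0.50, limma adjusted p = 0.126). Its 3 probe sets, all in the class 8 to 16, were at 0.12, 0.37 and 0.40. Slc38a1 and Slc38a5, which carry glutamine among others, were at 0.16 and 0.17, and Slc38a9, a lysosomal sensor of arginine for mTORC1, was at 0.15. Probe sets of these genes differed in sign, at -0.018 and 0.33 for Slc38a1 and from -0.20 to 0.33 over the 7 of Slc38a9. The other 5, Slc38a3, Slc38a4, Slc38a6, Slc38a7 and Slc38a10, lay between -0.14 and 0.076. In the proton-coupled Slc36 family Slc36a3 was at 0.33 (limma adjusted p = 0.122) and Slc36a4 at 0.14, while Slc36a1, the lysosomal PAT1, and Slc36a2 were at -0.15 and -0.13 with diets that overlap.

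The Slc6 family held 18 members, of which Slc6a14 passed. Slc6a18, a renal carrier of neutral amino acids, was at 0.079 and 0.088 in CAS and -0.27 and -0.079 in SPI (difference -0.26, limma adjusted p = 0.187). The 8 others that carry amino acids or have no settled substrate were Slc6a5 and Slc6a9 (glycine), Slc6a7 (proline), Slc6a15, Slc6a16, Slc6a17, Slc6a19 and Slc6a21, and they lay between -0.063 and 0.17. None of the 3 carriers of taurine, creatine and betaine passed in limma, and 0 had an unadjusted p under 0.05 (beside 21.0% of all genes). Slc6a6, the taurine transporter, differed by 0.0078 (95% interval -0.16 to 0.18), Slc6a8, the creatine transporter, by 0.083 and Slc6a12, the betaine transporter, by -0.070. All 5 monoamine and GABA carriers had a positive difference, from 0.078 for Slc6a13 to 0.23 for Slc6a4, beside 10206 of all 18193 genes. Of the 5, 3 lay in the class 2 to 4. None passed in limma, and Slc6a3, in that class, came nearest (0.23, limma adjusted p = 0.140). With arrays centred on the hybridization controls, which raises every difference alike, Slc6a2 and Slc6a3 passed.

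Probe sets of a gene often differed. Among the 33 transporters with several, 12 had all of them on one side of 0, and the median distance between the lowest and the highest was 0.28 on the log2 scale. Of the 64 genes 20 had a difference of at least 0.2 in size, and 2, Slc15a2 and Slc6a14, reached 1.5-fold.

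**Figure D3:**
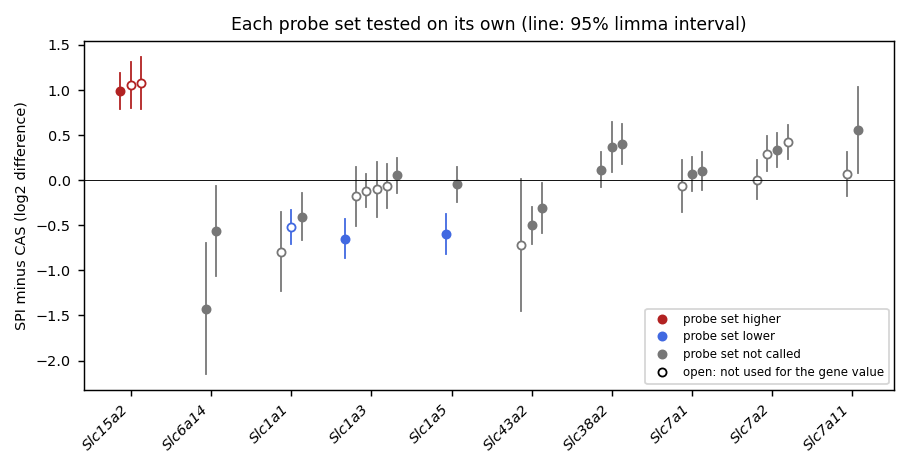
SPI minus CAS of each probe set tested on its own (log2 difference on the y axis, 95% limma interval as a line) for 10 transporters with several probe sets. Filled points entered the gene value, and open points, in a lower level class, did not. The 3 probe sets of Slc15a2 lie between 0.99 and 1.08, while those of Slc1a3 spread from -0.65 to 0.053.

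Genes that act beside the carriers were read from 6 lists. Of 26 genes of the amino acid stress response 2 were higher and 2 lower in SPI (15.4% called, beside 3.68% of all genes), and 17 had an unadjusted p under 0.05 (65.4%, beside 21.0%). Chac1, which breaks down glutathione, was at -0.23 and -0.25 in CAS and 0.23 and 0.24 in SPI, 1.39-fold higher (limma adjusted p = 0.0269), and Psph, the last enzyme of serine synthesis, was 1.31-fold higher (adjusted p = 0.0448). Nupr1, a stress-induced chromatin protein, was 1.61-fold lower and Eif2ak3, the stress kinase PERK, 1.42-fold lower. Both SPI arrays lay above both CAS arrays in 19 of the 26 (73.1%, beside 29.4% of all genes) and below in 4 (15.4%, beside 22.4%), and the list median was 0.19 beside 0.021 for all genes. Atf4 itself was at 0.069 and Asns, asparagine synthetase, at 0.24, and neither passed.

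Of 32 genes of amino acid sensing by mTORC1 0 passed in limma, where 3.68% of all genes passed. An unadjusted p under 0.05 was reached by 3 (9.38%, beside 21.0% of all genes), and the median was 0.033. Of 10 genes of glutathione synthesis and use 0 passed, 1 had an unadjusted p under 0.05 (10.0%) and the median was 0.027. Of 24 amino acid carriers of other families, most of them mitochondrial, 0 passed. In that list 4 had an unadjusted p under 0.05 (16.7%), and the median was -0.012. Of 17 peptidases and transporter partners 6 had an unadjusted p under 0.05 (35.3%), and the median was -0.11. The 1 that passed was Enpep, which removes acidic residues from peptides. It was at 0.74 and 0.75 in CAS and -0.74 and -0.93 in SPI, 2.99-fold lower (95% interval 2.57 to 3.49, limma adjusted p = 0.00352). The 6 of 16 endothelial and pericyte markers called lower moved the same way. So did the fibroblast, luminal, milk protein, mast cell and adipocyte markers called, while 4 of 20 basal markers and 1 of 16 macrophage markers were called higher. None of this was tested as a part of the Enpep difference.

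Of 31 genes of amino acid breakdown and conversion 1 was higher and 3 were lower (12.9% called, beside 3.68% of all genes), 13 had an unadjusted p under 0.05 (41.9%, beside 21.0%) and the median was -0.010. Hal, which starts histidine breakdown, was 3.86-fold higher in SPI (limma adjusted p = 0.00631). Cdo1, which oxidises cysteine on the way to taurine, was 1.88-fold lower, Arg1, an arginase, 1.61-fold lower and Bckdhb, a subunit of the branched-chain ketoacid dehydrogenase, 1.44-fold lower (limma adjusted p between 0.0101 and 0.0291). Bcat1, the cytosolic branched-chain aminotransferase, was at 0.37 and did not pass (limma adjusted p = 0.0581).

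**Figure D4:**
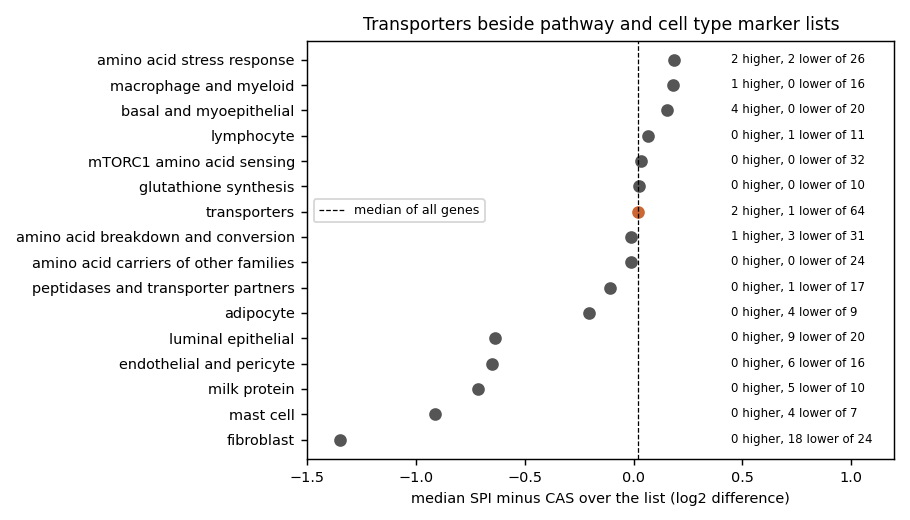
Median SPI minus CAS (log2 difference on the x axis) of the 64 transporters and of each pathway and marker list, with the number of genes called higher or lower in SPI at the right and the median of all genes as a dashed line. The transporters lie at 0.023, beside all genes at 0.021, and the fibroblast markers at -1.35.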

How the data were processed

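The 4 Affymetrix arrays were processed by the authors with GCOS and RMA, per the submitters' processing notes (no versions in the sources used here). The deposited log2 values (base taken from the RMA method) had been centred, since the median of the 4 values of each probe set was 0 to within 5e-07, a step no label records. Symbols came from the platform annotation of 34945 probe sets with 1 gene, of which 34741 were matched by gene ID to GRCm38.p6. Level classes were read from the numbers' binary step size, and the probe sets in the highest class of a gene were averaged. Because a strong fall can lower the class, that choice can depend on diet.

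SPI minus CAS was fitted in R 4.3.3 by limma 3.58.1 (functions lmFit then eBayes, two-sided, no trend, no block, 2 residual and 3.03 prior degrees of freedom), with Benjamini-Hochberg adjustment over 18193 genes. A trend over intensity needs levels and was not used. The number of arrays limits precision.

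The members, lists and tests were chosen with earlier results of these data known. Named were members past the threshold, the largest differences of each substrate group, Slc3a1, Slc3a2 and Slc7a5 to Slc7a11, and up to 4 genes past the threshold per pathway list. Other members are named to account for all of them, and list genes that did not pass were chosen after their values were seen. Listed genes without a single-gene probe set here were not analysed. Alternatives were the replicate block, each array left out, arrays centred on their median or on 18 hybridization control probe sets, the mean of all probe sets, a level filter at 4, single probe sets, an ordinary t statistic and an unadjusted rule.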

Additional observations from a re-analysis of the deposited data

How the results depend on the processing

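The main counts were 3 of 64 members called (2 higher, 1 lower), 9 listed pathway genes and 670 genes. With arrays centred on the hybridization controls, which moved the median of all genes from 0.021 to 0.18 and that of the members to 0.18, 13 members (12 higher, 1 lower), 22 pathway genes and 2182 genes (12.0% of all, 9.14% higher) were called, and 24 members changed sign, as that scaling adds the same amount to every difference. Added there were Slc1a6, Slc36a3, Slc38a2, Slc3a2, Slc43a1, Slc6a2, Slc6a3, Slc7a11, Slc7a2 and Slc7a3. With arrays centred on their median 2 members (1 higher, 1 lower) and 709 of the 18193 genes were called. By the unadjusted rule 2 members (1 higher, 1 lower) and 575 genes were called. At level 4 or above 5 members (2 lower), 17 pathway genes and 1093 genes (7.98%) were called, with Slc1a5, Slc43a2 and Slc7a2 added and Slc6a14 not tested. The mean of all probe sets gave 4 members (2 lower, with Slc1a1 added) and 727 genes. Single probe sets gave 4 members, 1 higher and 3 lower (Slc1a1, Slc1a3 and Slc1a5), and 619 genes. The cause of these changes was not tested. With the replicate number as a block 1 member was called (1 higher, 0 lower), 4 pathway genes and 347 genes. The numbers were not shown to pair the arrays (correlation of deviations over genes -0.083). By an ordinary t statistic 0 members, 0 pathway genes and 0 genes were called, with 12 members and 2901 genes at an unadjusted p under 0.05. Leaving out any 1 of the 4 arrays, the limma counts of members (0 higher, 0 lower), pathway genes and all genes were 0, with 13 to 15 members and 2493 to 3081 genes at an unadjusted p under 0.05, and the members' median lay between 0.012 and 0.049. There a lone array is assumed to vary like the other diet. Slc15a2, Slc6a14 and Slc7a5 kept their direction under every alternative in which they were tested. Centred values carry no signal over background, so dim probe sets could not be told from absent transcripts.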
